A study of Mus musculus with 12 samples.

Results

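The response of PD-L2 overexpressing melanoma to BRAF inhibition was described by comparing 3 tumors given a BRAF inhibitor (BRAFi) with 3 tumors given vehicle. These 6 libraries are part of a series of 12, in which 3 vehicle tumors and 3 BRAFi tumors without PD-L2 overexpression, called control tumors here, form the other groups. Genes were kept where the mean over the 12 libraries was at least 1 FPKM, a fragment count scaled by transcript length and by library size, which left 12117 of 23940 genes. All tumors were grown from the YUMM1.7 line, mouse melanoma cells with activated Braf and without Cdkn2a, in immunodeficient mice, which the sample labels call NSG and the series design calls NOD/SCID. Both host strains lack T and B lymphocytes. The labels name the vehicle as DMSO in sample titles and give neither the inhibitor, its dose, the length of treatment nor the age of the mice, and do not say whether the PD-L2 tumors come from a single clone or which promoter drives PD-L2. The series design speaks of resistance to BRAFi, while the labels give the treatment only. The labels list each library as a separate tumor.

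BRAF is a kinase of the MAPK cascade, in which RAS, RAF, MEK and ERK act in sequence, and activated alleles of it drive many melanomas. Inhibitors of BRAF lower ERK signalling in such cells, and tumors that regrow under treatment often restore it, with the feedback inhibitors of ERK, the Sprouty and DUSP genes, serving as a readout. Pdcd1lg2 encodes PD-L2, which binds PD-1, an inhibitory receptor best known on T cells.

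Of the genes called higher, 3 encode microRNAs that were at or near 0 in nearly all other tumors. The sequences of Mir212 and Mir8104 are shown first. Mir1940 had no entry among the reference microRNA sequences, so none is shown for it. Mir212 was at 18.2, 14.8 and 18.5 FPKM in PD-L2 BRAFi tumors 1, 2 and 3, and it was listed at 0 in the 3 PD-L2 vehicle tumors and in the 6 control tumors. Mir1940 was at 11.5, 9.33 and 12.9 FPKM in the same 3 tumors and listed at 0 in the other 9. Mir8104 was at 8.24, 15.8 and 21.2 FPKM, against 0.000488 FPKM or less in the PD-L2 vehicle tumors and 3.09 FPKM in control BRAFi tumor 3, the highest of the control libraries. All 3 tumors with both PD-L2 and BRAFi were thus above every other library for each of the 3 genes. In limma's moderated test on log2(FPKM + 1), with Benjamini-Hochberg adjustment over all genes, the adjusted p was 4.67e-07 for Mir212, 3.1e-06 for Mir1940 and 0.0191 for Mir8104. These genes passed the filter on low values through the PD-L2 BRAFi group alone or almost alone, so they had to differ, and their p-values are given as a description. For Mir8104 it was 0.0541 without PD-L2 BRAFi tumor 2 and 0.0871 without tumor 3. The mature sequences from RefSeq (GRCm38.p6) are given from 5′ to 3′, with the seed, bases 2 to 8, in capitals.
mmu-miR-212-5p: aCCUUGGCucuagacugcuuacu
mmu-miR-212-3p: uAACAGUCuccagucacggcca
mmu-miR-132-3p: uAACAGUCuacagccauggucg
mmu-miR-8104: cAGGAUGAgguggagugcagcg

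The miR-212 arms lie at chr11:75173403-75173425 and chr11:75173443-75173464 and miR-8104 at chr10:122679336-122679357, all on the plus strand. miR-132-3p, at chr11:75173723-75173744, is shown because it shares the seed AACAGUC with miR-212-3p and is encoded next to it. Mir132 itself was listed at 0 in all 12 libraries, so the neighbouring hairpin was not seen with Mir212. The annotation places Mir212 inside the noncoding gene 1700016P03Rik and the hairpin of Mir8104 within coding exon 1 of Ppm1h on the same strand. Ppm1h, a protein phosphatase, was at 1.12 to 2.77 FPKM over the 12 libraries with no separation of the PD-L2 BRAFi tumors. The libraries were poly(A)-selected, which does not capture mature microRNAs, and the hairpins are short, at 91 nt for Mir212 and 101 nt for Mir8104, so these FPKM do not measure the mature microRNAs. Over all 1212 small RNA genes of the table, with no filter, Mir212 and Mir1940 were the 2 that were above 0 in all 3 tumors of a group and listed at 0 in all other libraries. Values of 0 were common in this class: of the 271 small RNA genes tested, 78 were above 0 in 1 library only and 37 in all 12. Mir212 and Mir1940 were singled out after their values were seen.

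Some PD-L2 tumors stood apart before any comparison. Pdcd1lg2 was at 41.3, 58.2 and 114 FPKM in PD-L2 vehicle tumors 1, 2 and 3 and at 176, 20.8 and 171 FPKM in PD-L2 BRAFi tumors 1, 2 and 3, against 0.133 to 3.54 FPKM in the control tumors. PD-L2 BRAFi tumor 2 was thus the lowest PD-L2 tumor. The same tumor had the lowest sum of Y-linked genes, 4.72 FPKM against 14.6 to 39.6 FPKM elsewhere, the highest sum of pericyte markers in the series, 354 FPKM, and 16.13% of its summed FPKM in the microRNA gene Mir2137, which was listed at 0 in the other 11 libraries. PD-L2 BRAFi tumor 3 carried keratinocyte transcripts, with Krt14 at 81.8 FPKM and Krt5 at 34.7 FPKM against at most 0.101 FPKM in the other PD-L2 tumors. Of the 15 melanocyte genes listed, 5 had a mean of at least 1 FPKM, and the list summed to 16 to 42.7 FPKM. The pigment genes Dct, Mlana and Tyrp1 were at 0 to 0.169 FPKM and Tyr at 0.535 to 1.63 over the 12 libraries, while the lineage transcription factors Mitf and Pax3 were at 2.32 to 5.16 and 7.15 to 12.8 FPKM and Sox10 at 0.0307 to 24.9. Cdkn2a was at 2.62 to 6.59 FPKM, a value that covers the whole gene and so does not check for the loss of part of it. Of the 14 lymphocyte markers, 2 had a mean of at least 1 FPKM and 2, Cd3g and Gzma, were listed at 0 in all 12 libraries, and the list summed to 1.54 to 7.49 FPKM in PD-L2 tumors.

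**Figure D1:**
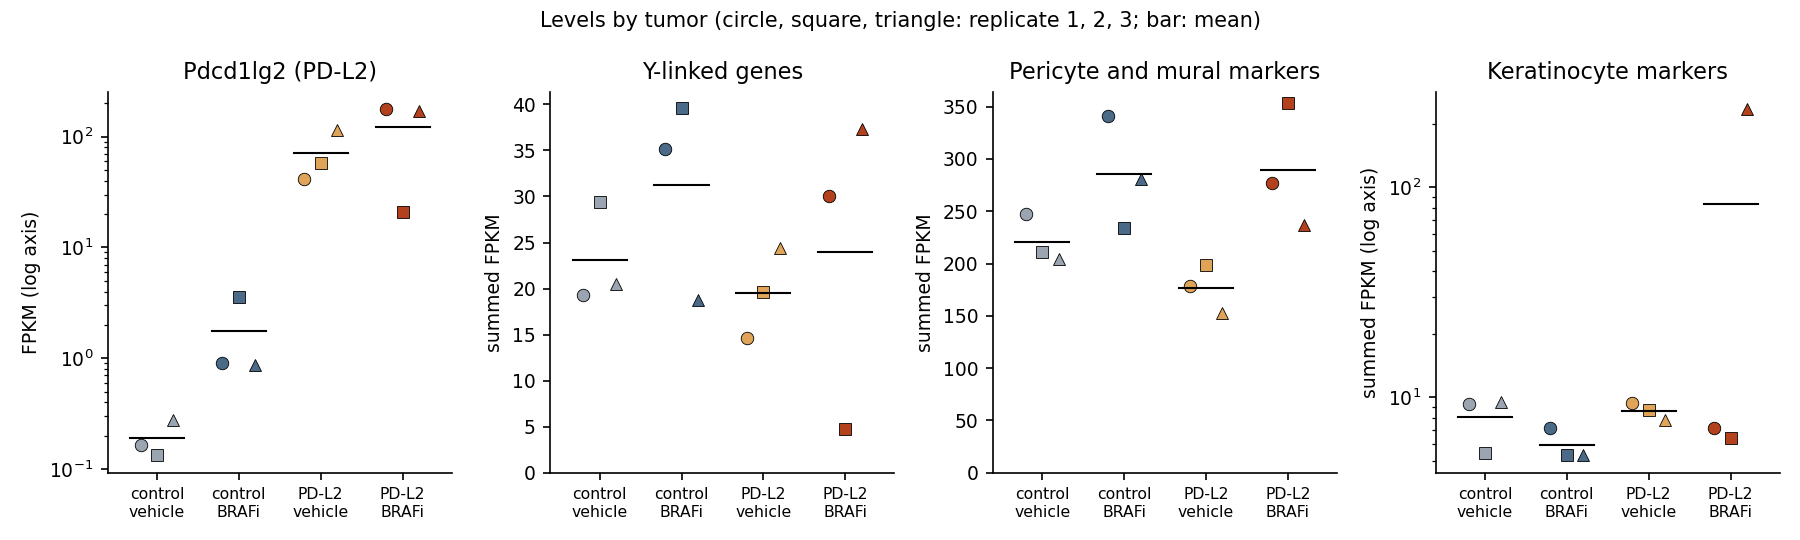
FPKM of Pdcd1lg2 (log axis) and summed FPKM of Y-linked genes, pericyte and mural markers, and keratinocyte markers (log axis) in each of the 12 tumors, by group, with bars at group means. PD-L2 BRAFi tumor 2 (square) had 20.8 FPKM of Pdcd1lg2 and the lowest Y-linked sum, 4.72 FPKM, and PD-L2 BRAFi tumor 3 (triangle) the highest keratinocyte sum, 235 FPKM.

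Between BRAFi and vehicle, 29 of 12117 genes passed an adjusted p of 0.05 in PD-L2 tumors (0.239%), 22 of them higher (0.182%) and 7 lower (0.0578%). Beside the 3 microRNA genes, the genes that rose were led by Mmp9 and included matrix proteins, an integrin, a TGF-beta ligand and the neuropeptide Gal, and those that fell included Spon2, Tmem200b and the cavin gene Ptrf. An unadjusted p under 0.05 was reached by 2586 genes (21.3%), and the 3 BRAFi and 3 vehicle tumors did not overlap for 3620 (29.9%), 1885 of them higher (15.6%) and 1735 lower (14.3%), which includes all 29. On the log2(FPKM + 1) scale the 95% interval lay within 1 of no change in both directions for 9717 genes (80.2%), with a median SE of 0.17. The pseudocount understates the change of low genes, so for them this interval does not bound the fold change. The number of calls moved with single libraries. Leaving out PD-L2 BRAFi tumor 1 gave 30 calls, tumor 2 gave 5 and tumor 3 gave 4. Leaving out PD-L2 vehicle tumor 1 gave 9, tumor 2 gave 3 and tumor 3 gave 4. Control libraries enter through the pooled spread, and the number was 136, 9 or 11 when control vehicle tumor 1, 2 or 3 was left out and 28, 48 or 22 when control BRAFi tumor 1, 2 or 3 was. Without PD-L2 BRAFi tumor 2, whose Pdcd1lg2 was lowest, the genes among the 29 that passed were Mmp9, Mir212, Mir1940 and Tmem200b. Without PD-L2 BRAFi tumor 3 they were Mmp9, Mir212, Mir1940 and Nkd2. The others of the 29 had an adjusted p of 0.0524 to 0.092 in the first case and 0.0723 to 0.188 in the second. The sign of the change held for all 29 genes in both cases.

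**Figure D2:**
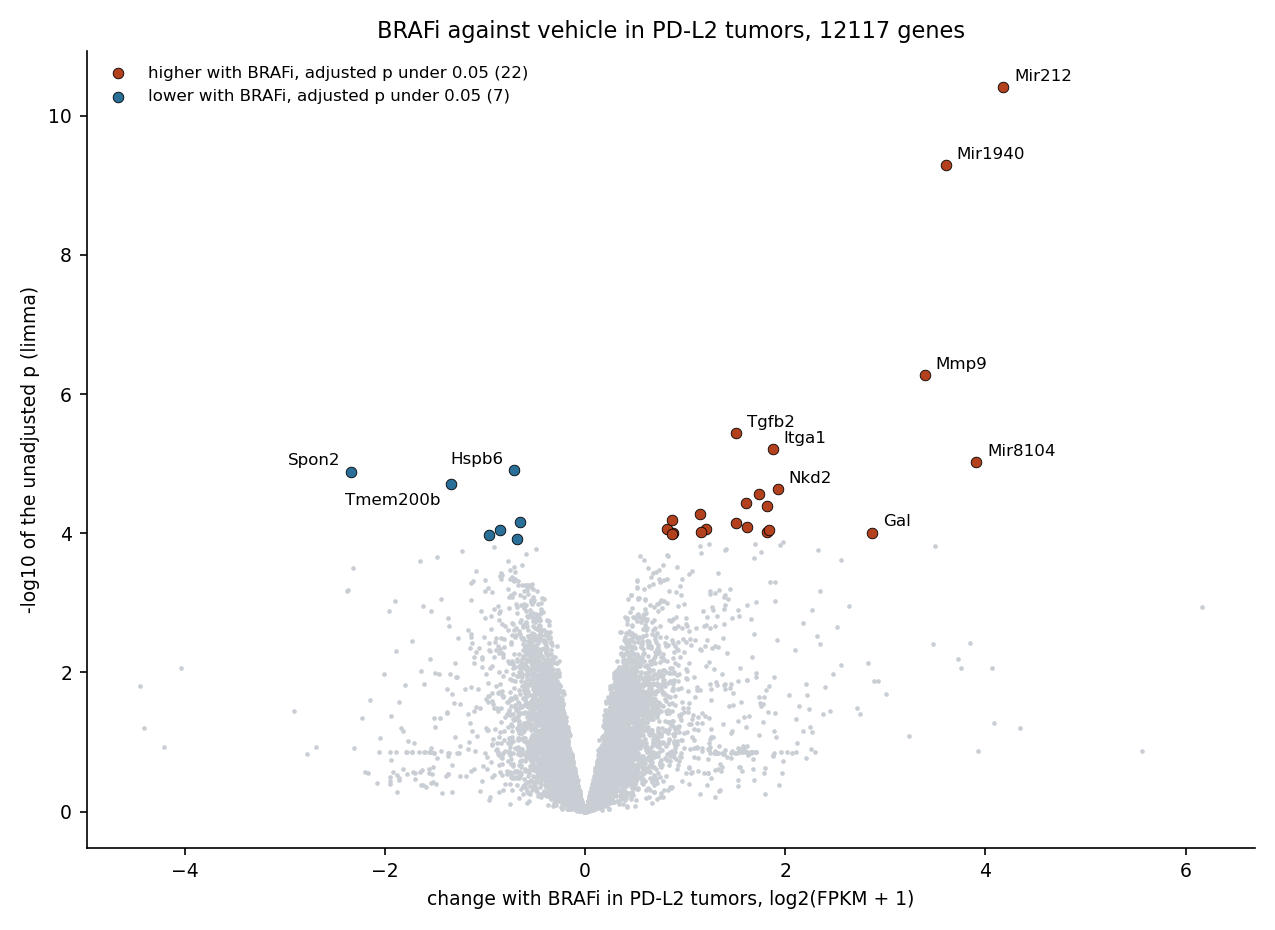
Change with BRAFi in PD-L2 tumors on the log2(FPKM + 1) scale (x axis) against -log10 of limma's unadjusted p (y axis) for 12117 genes. The 22 genes higher and 7 lower at an adjusted p under 0.05 are in red and blue, with Mir212, Mir1940 and Mmp9 at the smallest p among the 29.

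The called genes were also placed against the control tumors of the same treatment. In 20 of the 22 genes that rose, the mean of the PD-L2 vehicle tumors was below that of the control vehicle tumors, as it was in 48.5% of all genes tested. In 9 of them (Mmp9, Tgfb2, Itga1, Nkd2, Prdm1, Gal, Postn, Lpar6 and Col15a1) all 3 PD-L2 vehicle tumors were below all 3 control vehicle tumors, against 10.5% of all genes. In 4 of the 7 genes that fell (Tmem200b, Hspb6, Crlf2 and Ptrf), all 3 PD-L2 vehicle tumors were above all 3 control vehicle tumors, against 10% of all genes. Under BRAFi, all 3 PD-L2 tumors were above all 3 control tumors for 5 of the 22 genes that rose (Mmp9, Prdm1 and the 3 microRNA genes), against 6.68% of all genes, and below them for 1, Enpp2, against 4.78%. The 3 microRNA genes passed the filter through the PD-L2 BRAFi group alone or almost alone. Their place in this count was therefore fixed in advance, and the count is not read as an excess over all genes. The PD-L2 vehicle and PD-L2 BRAFi tumors that define the called genes also enter these counts. The counts thus describe the same libraries and are no independent result.

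**Figure D3:**
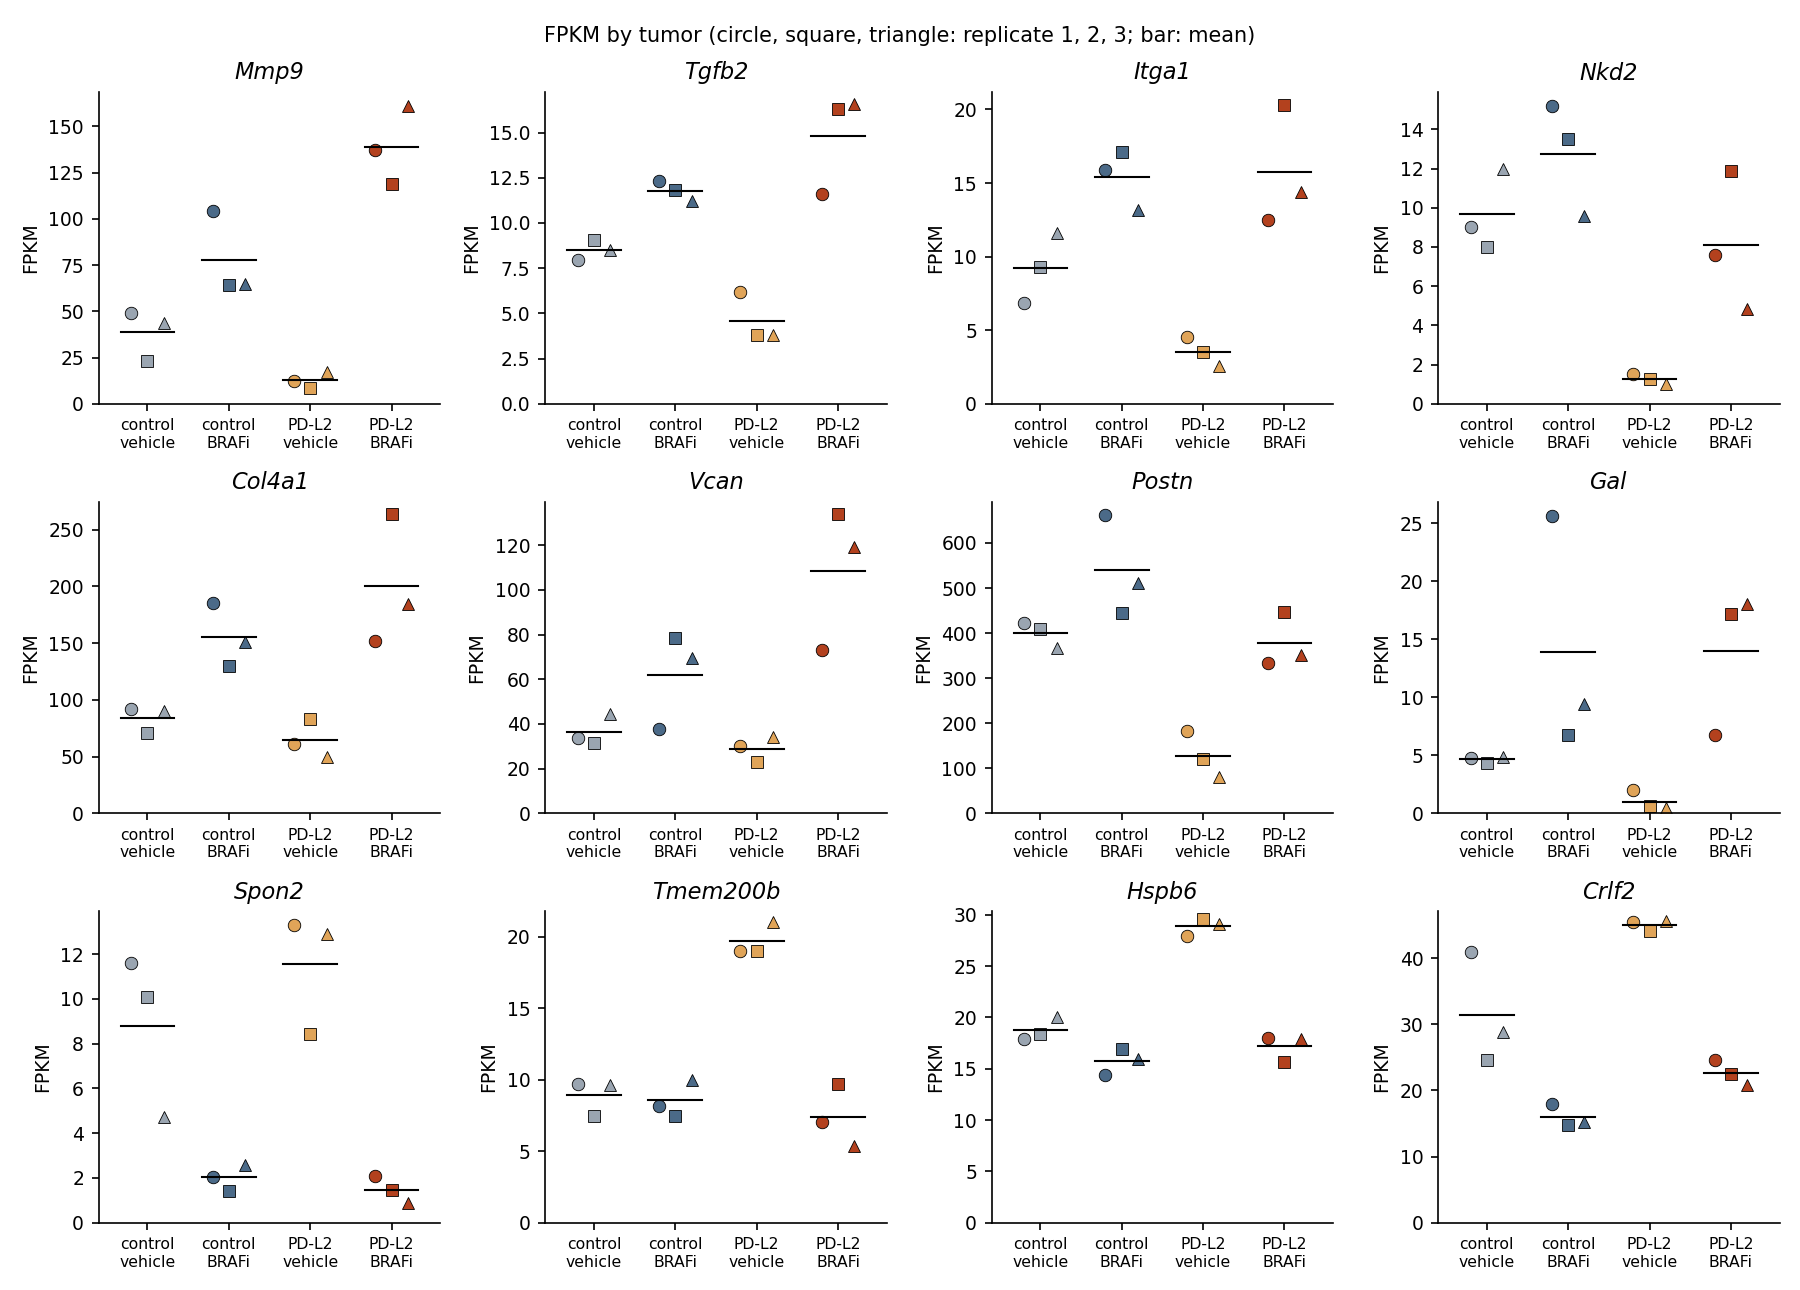
FPKM of 12 genes that passed the threshold in PD-L2 tumors, in each of the 12 tumors by group, with bars at group means. Mmp9 is at 8.43 to 17.2 FPKM in PD-L2 vehicle tumors and 119 to 161 in PD-L2 BRAFi tumors, while Tmem200b is at 19 to 21 FPKM in PD-L2 vehicle tumors and 5.34 to 10 in the other 9 tumors.

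Among proteases, the gelatinase Mmp9, which cleaves type IV collagen of basement membranes, showed the strongest response of any protein-coding gene by p. It was at 12.3, 8.43 and 17.2 FPKM in the vehicle tumors and at 137, 119 and 161 FPKM in the BRAFi tumors, a ratio of means of 11.0. Every BRAFi tumor was several times above every vehicle tumor. The change was 3.40 ± 0.32 on the log2 scale (SE; adjusted p = 0.00216) and passed in all 26 alternative analyses, with 3.16 to 3.64. In control tumors Mmp9 went from 49, 22.9 and 43.8 to 104, 64.5 and 64.9 FPKM (1.03, adjusted p = 0.0655). The response of PD-L2 tumors exceeded that of control tumors by 2.38 ± 0.45, with an unadjusted p of 2.93e-04 that became 0.443 after adjustment over all genes.

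Other metalloproteinases were mostly positive but did not pass. Over the 31 tested members of the metalloproteinase list, 1 passed (Mmp9), 23 changes were positive, and 14 positive and 2 negative changes had an unadjusted p under 0.05, which 11.0% and 10.4% of all genes had. The median was 0.33, against 0.01 over all genes and 0.20 for the same list in control tumors. The stromelysin Mmp3 was at 227, 188 and 161 FPKM under vehicle and 654, 1080 and 601 under BRAFi (1.98 ± 0.34, adjusted p = 0.0525), the nearest gene outside the threshold. The membrane-bound collagenase Mmp14 was tightly grouped, at 434, 414 and 424 FPKM and then 608, 690 and 631 (0.60 ± 0.14, adjusted p = 0.0791), with a control value of 0.01. Adamts12 (1.25 ± 0.26, adjusted p = 0.068) and Adamts9 (0.93 ± 0.21, adjusted p = 0.0764), secreted proteases of the ADAMTS family, were positive as well. Timp1, an inhibitor of these enzymes, was at 764, 826 and 973 FPKM and then 606, 253 and 757 (-0.80 ± 0.35, adjusted p = 0.223), so that no BRAFi tumor reached the lowest vehicle tumor. In the plasminogen system, which activates several of these proteases, 0 of 9 tested members passed. The activators Plat (1.24 ± 0.37, adjusted p = 0.131) and Plau (1.62 ± 0.54, adjusted p = 0.151) were positive.

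Basement membrane genes gave 2 of the 22 rises. Col4a1, a chain of the type IV collagen network, was at 60.7, 82.9 and 49.9 FPKM under vehicle and 152, 264 and 184 under BRAFi (1.61 ± 0.24, adjusted p = 0.0367). Its partner chain Col4a2, which is transcribed from the same bidirectional promoter, had a change of 1.41 ± 0.25 and just missed (adjusted p = 0.0528). Col15a1, a collagen that bridges the basement membrane to the fibrillar matrix, was at 58.5, 49.5 and 37.8 and then 134, 208 and 182 FPKM (1.82 ± 0.30, adjusted p = 0.0452). In all 3 the highest value was in PD-L2 BRAFi tumor 2, the tumor with the highest pericyte sum. Without that tumor the adjusted p was 0.0771 for Col4a1 and 0.092 for Col15a1, and without tumor 3 it was 0.147 and 0.183. With the length trend removed it was 0.0539 and 0.0596. Of the 19 tested members, 2 passed, 14 were positive, and 10 had a positive change with an unadjusted p under 0.05, while 0 had a negative one. The shares over all genes were 11.0% and 10.4%. The median of the list was 0.50, the same as in control tumors, and 0.34 with the length trend removed. The laminin chains Lama2 (1.54 ± 0.36, adjusted p = 0.0863) and Lama4 (1.25 ± 0.31, adjusted p = 0.0931) were positive, while Col4a5 and Col4a6, minor type IV chains, were both at -0.33.

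**Figure D4:**
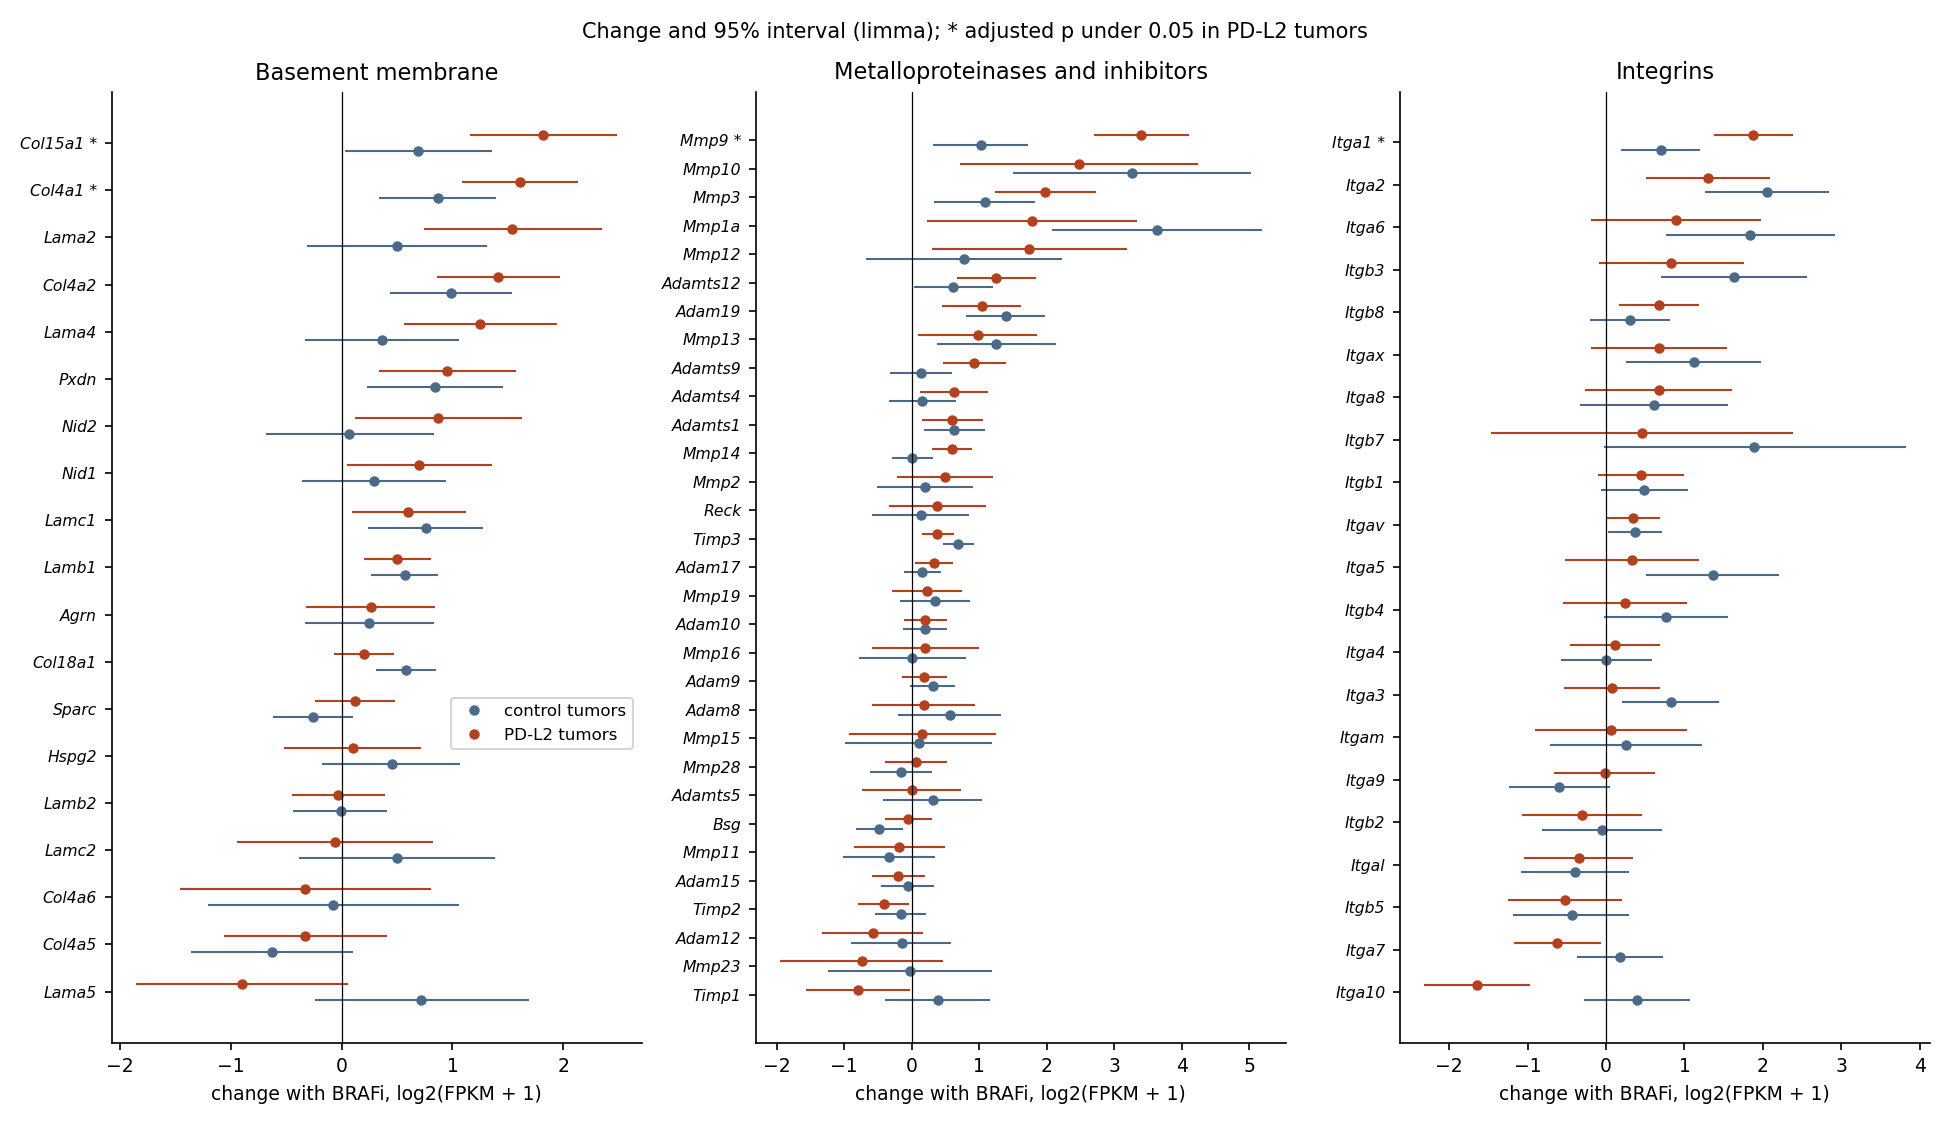
Change with BRAFi on the log2(FPKM + 1) scale with its 95% interval (limma) for each tested gene of the basement membrane, metalloproteinase and integrin lists, in PD-L2 tumors (red) and control tumors (blue). Genes marked with an asterisk passed in PD-L2 tumors: Col15a1, Col4a1, Mmp9 and Itga1.

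Interstitial and matricellular matrix genes divided. Vcan, a large proteoglycan of provisional matrix, rose from 30.1, 22.8 and 34 to 72.9, 134 and 119 FPKM (1.84 ± 0.30, adjusted p = 0.0452). Postn, the matricellular protein periostin, rose from 183, 121 and 80.5 to 333, 446 and 352 FPKM (1.62 ± 0.26, adjusted p = 0.0452). Its control vehicle tumors were already at 366 to 423 FPKM, a range that PD-L2 BRAFi tumors 1 and 3 did not reach and tumor 2 exceeded. Spon2, the secreted matrix protein spondin 2, fell from 13.3, 8.43 and 12.9 to 2.08, 1.46 and 0.89 FPKM (-2.34 ± 0.31, adjusted p = 0.0197). It fell in control tumors too (-1.63, adjusted p = 0.0301). Without PD-L2 BRAFi tumor 2 the adjusted p was 0.092 for Vcan and Postn and 0.0567 for Spon2, and without tumor 3 it was 0.183, 0.147 and 0.0941. Over 38 tested matricellular members, 2 rose and 1 fell, and the median was 0.05. None of 17 tested interstitial collagens passed, although 13 were positive (median 0.53, and 0.33 with the length trend removed). Of the 17, 8 had a positive change with an unadjusted p under 0.05, against 11.0% of all genes. The largest was Col7a1, which forms anchoring fibrils, at 3.5, 3.34 and 1.69 and then 9.23, 14.1 and 16.9 FPKM (1.90 ± 0.39, adjusted p = 0.0674). Leprel4, an endoplasmic reticulum protein of collagen processing, fell from 53.4, 52.4 and 50.2 to 35.5, 34.9 and 28.6 FPKM (-0.65 ± 0.10, adjusted p = 0.0452). It was 1 of 26 tested collagen processing genes to pass, and it fell in control tumors as well (-0.59, adjusted p = 0.0288).

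Itga1, the alpha subunit of a collagen-binding integrin, was 1 of 21 tested integrins to pass. It rose from 4.51, 3.5 and 2.55 to 12.5, 20.3 and 14.4 FPKM (1.88 ± 0.23, adjusted p = 0.0148) and passed in 20 of 26 alternatives, with an adjusted p of 0.0524 without PD-L2 BRAFi tumor 2 and 0.0723 without tumor 3. The BRAFi tumors overlapped the control BRAFi tumors, which were at 13.2 to 17.1 FPKM, while the vehicle tumors were below the control vehicle tumors at 6.86 to 11.6. Its partner Itgb1 was at 0.45 ± 0.25 (adjusted p = 0.322). Itga10, another collagen-binding alpha subunit, pointed the other way, from 5.75, 4.19 and 6 to 1.73, 0.504 and 0.94 FPKM (-1.65 ± 0.31, adjusted p = 0.0572). Its control change was 0.40, and the difference between the responses, -2.05 ± 0.43, had an unadjusted p of 6.86e-04 and an adjusted p of 0.56. The integrin list had a median of 0.33, which was 0.12 with the length trend removed.

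Of the TGF-beta ligands, Tgfb2 alone passed. It rose from 6.19, 3.82 and 3.79 to 11.6, 16.3 and 16.6 FPKM (1.51 ± 0.17, adjusted p = 0.0111), and the call held in 20 of 26 alternatives at 1.30 to 1.71. The adjusted p was 0.0524 without PD-L2 BRAFi tumor 2 and 0.0723 without tumor 3. Control tumors went from 7.97, 9.03 and 8.48 to 12.3, 11.8 and 11.2 FPKM (0.43, adjusted p = 0.12), and the difference of the responses was 1.08 ± 0.24 (unadjusted p = 1.1e-03, adjusted p = 0.70). The other ligands, Tgfb1 (-0.13 ± 0.21, adjusted p = 0.759) and Tgfb3 (0.12 ± 0.18, adjusted p = 0.72), and the receptor Tgfbr2 (0.08 ± 0.30, adjusted p = 0.913) did not pass. The receptor Tgfbr1 was at 22.4, 20.4 and 20.3 and then 29.6, 34.8 and 28.7 FPKM (0.54 ± 0.12, adjusted p = 0.0741). Over 39 tested members of the superfamily list, 1 passed and the median was 0.11. Tgfb2 is also the only member of 26 tested YAP and TEAD targets that passed (median 0.25, with 22 positive).

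Among Wnt genes, Nkd2, which binds Dishevelled and dampens Wnt signalling, rose from 1.53, 1.28 and 1.02 to 7.61, 11.9 and 4.83 FPKM (1.93 ± 0.27, adjusted p = 0.028). The control tumors were at 8 to 12 FPKM under vehicle, a range that 2 of the 3 PD-L2 BRAFi tumors were still below. Lef1, a transcription factor of the pathway (0.97 ± 0.19, adjusted p = 0.0673), and the ligand Wnt5a (1.40 ± 0.31, adjusted p = 0.0755) were positive, and 1 of 26 tested genes passed. Prdm1, the transcriptional repressor BLIMP1, rose from 5.31, 5.33 and 2.75 to 16.6, 16.2 and 20.8 FPKM (1.82 ± 0.27, adjusted p = 0.038). All 3 values under BRAFi were above the highest of the other 9 libraries, 15.5 FPKM in control BRAFi tumor 2. The adjusted p without PD-L2 BRAFi tumor 2 was 0.0524 for Nkd2 and 0.0804 for Prdm1, and without tumor 3 it was 0.0176 and 0.147.

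Gal, which encodes the neuropeptide galanin, rose from 1.98, 0.624 and 0.436 to 6.78, 17.2 and 18 FPKM (2.87 ± 0.47, adjusted p = 0.0452). It passed in 13 of 26 alternatives, and the adjusted p was 0.092 without PD-L2 BRAFi tumor 2 and 0.188 without tumor 3. Of its receptors, Galr1 and Galr3 were at 0.0804 FPKM or less in the PD-L2 tumors and Galr2 was at 6.27 FPKM in PD-L2 BRAFi tumor 2 and at most 0.871 in the other 5. In the list of neuropeptides and peptide hormones 11 of 31 genes could be tested, 1 passed, and the median was 1.53, the second highest among all lists after that of keratinocyte genes. Stc1, the hormone stanniocalcin, was at 7.64, 13.4 and 11.2 and then 63.5, 33.1 and 87 FPKM (2.33 ± 0.41, adjusted p = 0.0528). Npy (3.73 ± 1.10, adjusted p = 0.126) and Pthlh (2.83 ± 0.86, adjusted p = 0.131) had larger and more uneven changes: Npy was at 5.15, 31.6 and 27.3 FPKM and Pthlh at 28.1, 4.92 and 72.2 under BRAFi. All 3 passed in control tumors. A gene reached these lists' tests only with a mean of at least 1 FPKM, so the median does not describe the 20 members below it.

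Several genes of lipid and polyamine metabolism and of signalling complete the rises. Enpp2, which encodes autotaxin, the enzyme that makes lysophosphatidic acid, was at 1.13, 1.02 and 1.17 and then 4.64, 3.67 and 3.37 FPKM (1.21 ± 0.20). Lpar6, a receptor of that lipid, went from 4.33, 5.03 and 4.56 to 8.99, 9.98 and 8.99 FPKM (0.87 ± 0.14), and Ppap2b, a phosphatase that degrades it, from 37.6, 31.1 and 45.3 to 76.1, 92.5 and 88.3 FPKM (1.16 ± 0.19). The spread was small in each of these and the groups did not overlap. Enpp2 rose in control tumors as well and to a higher level, 6.87 to 8.25 FPKM, whereas Lpar6 was at 7.04 to 9.34 FPKM in control vehicle and 7.32 to 10.4 in control BRAFi tumors. Smox, a polyamine oxidase (1.51 ± 0.24), Ugcg, which makes glucosylceramide (0.87 ± 0.14), the mediator kinase Cdk19 (0.88 ± 0.15), the microtubule-associated kinase Dclk1 (0.82 ± 0.13) and Nav3 (1.15 ± 0.18) rose with the same adjusted p of 0.0452 as the 3 lipid genes. Gpm6b, a membrane glycoprotein of neural cells, rose from 12.2, 9.04 and 11.5 to 31.5, 56.9 and 31.8 FPKM (1.74 ± 0.25, adjusted p = 0.0303). It was among the 5 rises that also passed in control tumors (adjusted p = 0.0301). Cdk19 (0.62, adjusted p = 0.0396), Dclk1 (0.86, adjusted p = 0.0277) and Enpp2 (1.94, adjusted p = 0.0148) passed in control tumors too. Without PD-L2 BRAFi tumor 2 or tumor 3 none of the 9 genes of this paragraph passed in PD-L2 tumors. Their adjusted p was 0.0524 to 0.092 without the first and 0.0807 to 0.184 without the second.

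The 7 genes that fell had changes of -0.65 to -2.34, with Spon2 and Leprel4 described above. Tmem200b, a transmembrane protein gene, fell from 19, 19 and 21 to 7.04, 9.72 and 5.34 FPKM (-1.34 ± 0.18, adjusted p = 0.0263). Control tumors were at 7.45 to 10 FPKM under both treatments, so the PD-L2 vehicle tumors stood above all other tumors. The difference of the responses was -1.28 ± 0.26 (unadjusted p = 4.92e-04, adjusted p = 0.53). Hspb6, a small heat shock protein, fell from 27.9, 29.6 and 29.1 to 18, 15.7 and 17.9 FPKM (-0.71 ± 0.09, adjusted p = 0.0197), and its relatives Hspb7 (-1.96 ± 0.45, adjusted p = 0.0798) and Hspb2 (-1.35 ± 0.44, adjusted p = 0.145) were negative while the 17 tested chaperones had a median of 0.02. Ptrf, the cavin that coats caveolae, the flask-shaped pits of the cell membrane, fell from 206, 232 and 236 to 147, 128 and 101 FPKM (-0.85 ± 0.14, adjusted p = 0.0452). Of the 9 tested caveolin and cavin genes 7 were negative, with Cav1 at -0.59 ± 0.28 (adjusted p = 0.258) and a median of -0.34. Crlf2, a subunit of the receptor for the cytokine TSLP, fell from 45.5, 44.1 and 45.6 to 24.6, 22.5 and 20.9 FPKM (-0.96 ± 0.16, adjusted p = 0.0456). Arhgef19, an exchange factor of small GTPases, fell from 11.4, 10.1 and 8.51 to 6.3, 6.14 and 5.08 FPKM (-0.68 ± 0.12, adjusted p = 0.0498). By sign alone all 7 changes were negative in control tumors too, including that of Tmem200b, whose control levels were alike under both treatments. Spon2, Leprel4, Crlf2 and Arhgef19 passed there. Hspb6 was at -0.24 in control tumors (unadjusted p = 0.0256, adjusted p = 0.108). Without PD-L2 BRAFi tumor 2 the adjusted p was 0.0103 for Tmem200b, 0.0524 for Hspb6, 0.0911 for Ptrf and Arhgef19 and 0.092 for Crlf2, and without tumor 3 it was 0.0807 to 0.188 for these 5.

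The threshold cut a continuous series. The genes just inside were Arhgef19 (adjusted p = 0.0498), Crlf2 (0.0456) and a block at 0.0452. Just outside, between 0.0525 and 0.0528, were Mmp3, Jup, Samd5, Sh3gl3, Gng11, Mcpt1, Sgsm2, Pold1, Col4a2 and Pla2g7. In all, 24 genes had an adjusted p between 0.05 and 0.06 and 325 had one under 0.1. Gng11, a G protein gamma subunit, was the most opposed to the control response among them, at 54, 40.5 and 50.7 and then 101, 113 and 110 FPKM (1.15 ± 0.20), while control tumors went from 115, 107 and 71.1 to 63.1, 43 and 59.1. The difference of the responses was 1.95 ± 0.28, with an unadjusted p of 3.12e-05 and an adjusted p of 0.126. Jup, the junction protein plakoglobin, was at 3.31, 3.62 and 2.4 and then 11.6, 10.9 and 14.4 FPKM. The mast cell protease Mcpt1 was at 2.79, 1.02 and 1.56 and then 14.6, 25 and 69.2 FPKM (3.50 ± 0.61), and its near-identical relatives make its counts uncertain.

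No readout of the MAPK pathway passed, and most were positive. None of the 21 tested members of the list of ERK targets and feedback inhibitors passed, 17 were positive and 4 negative, and the median was 0.46 (0.75 in control tumors). An unadjusted p under 0.05 was reached by 6 positive and 0 negative changes, against 11.0% and 10.4% of all genes. Spry4, a Sprouty inhibitor of receptor signalling, was at 30.5, 32 and 33.5 and then 63.3, 73.9 and 82.2 FPKM (1.16 ± 0.21, adjusted p = 0.0543). Dusp6, the ERK phosphatase, was at 61.1, 64.2 and 51.5 and then 100, 102 and 128 FPKM (0.89 ± 0.22, adjusted p = 0.0931), and Spred1 at 0.61 ± 0.15 (adjusted p = 0.0944). In these 3 genes every BRAFi tumor was above every vehicle tumor, as in 7 of the 21 members and in 15.6% of all genes. Dusp4 was uneven, at 49.1, 17.7 and 114 FPKM under BRAFi (1.59 ± 0.70, adjusted p = 0.223), and Etv4, an ERK-dependent transcription factor, was at -0.27 ± 0.19 (adjusted p = 0.423). Egr1 (92.9, 24.4 and 104 FPKM under BRAFi against 29.6 to 43.2 under vehicle), Fosl1 (25.3, 11.2 and 25.3) and Dusp4 were lowest of the BRAFi tumors in tumor 2, and without it the median of the 17 tested immediate early genes was 0.42 in place of 0.05. Jun (0.59 ± 0.11, adjusted p = 0.0572) and Egr3 (1.47 ± 0.35, adjusted p = 0.0865) were positive. Braf was at 3.76, 4.55 and 4.48 and then 6.97, 5.84 and 8.35 FPKM (0.61 ± 0.34, adjusted p = 0.329), whereas control BRAFi tumors were at 9.14 to 29.7.

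No gene of the cascade itself or of its receptors passed. None of 18 tested members of the RAS to ERK core passed (median 0.08), with Hras at -0.45 ± 0.11 (adjusted p = 0.0866) and Nf1, the RAS inhibitor, at 0.45 ± 0.17 (adjusted p = 0.174). None of 18 receptor tyrosine kinases passed (median 0.22). Egfr was at 4.32, 4.44 and 2.39 and then 8.29, 7.75 and 15.9 FPKM (1.27 ± 0.29, adjusted p = 0.0772), while Axl was at -0.03 ± 0.12 (adjusted p = 0.899). The death genes Bcl2l11, which encodes BIM and is held down by ERK, and Bax did not pass. Bcl2l11 was at 12.9, 12.5 and 10.5 and then 18.5, 24.4 and 21.5 FPKM (0.79 ± 0.16), and Bax at 106, 103 and 108 and then 75.1, 60.1 and 54.4 (-0.75 ± 0.15), both with an adjusted p of 0.0673. None of the 17 tested BCL2 family genes passed.

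Genes of growth were mostly negative, with 0 members of these lists past the threshold. Over all 12117 genes tested, 6147 changes were positive and 5921 negative. Of 28 DNA replication genes 24 were negative (median -0.23, and -0.10 after rescaling to the same sum), and of 26 mitosis genes 21 were (-0.19, and -0.06 rescaled). The rescaling moved the median of all genes from 0.00677 to 0.12, so both lists stayed below all genes by a similar amount. Birc5, which encodes survivin, was at 55.9, 49.1 and 55.1 and then 34.9, 37.3 and 30.5 FPKM (-0.63 ± 0.13, adjusted p = 0.068), and the helicase subunit Mcm5 at -0.43 ± 0.11 (adjusted p = 0.0944). Of 41 cytosolic ribosomal protein genes 40 were negative, with a median of -0.31 against -0.60 in control tumors, where 22 passed. Of 45 oxidative phosphorylation genes 41 were negative, with a median of -0.29 against -0.45 in control tumors, where 18 passed. In control tumors 3.91% of all genes passed as lower. The cytochrome oxidase subunit Cox8a, for example, was at 584, 538 and 527 and then 380, 315 and 319 FPKM (-0.70 ± 0.14, adjusted p = 0.0667). Ribosomal and respiratory transcripts are short, and in this comparison longer genes had higher changes (Spearman 0.413 across 12038 genes, which are no independent replicates). With the length trend removed the medians were -0.07 for ribosomal proteins and -0.06 for oxidative phosphorylation, and the ribosomal median was -0.10 after quantile normalization. Glycolysis and hypoxia genes were positive in 28 of 32, with a median of 0.19 and 0 past the threshold.

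**Figure D5:**
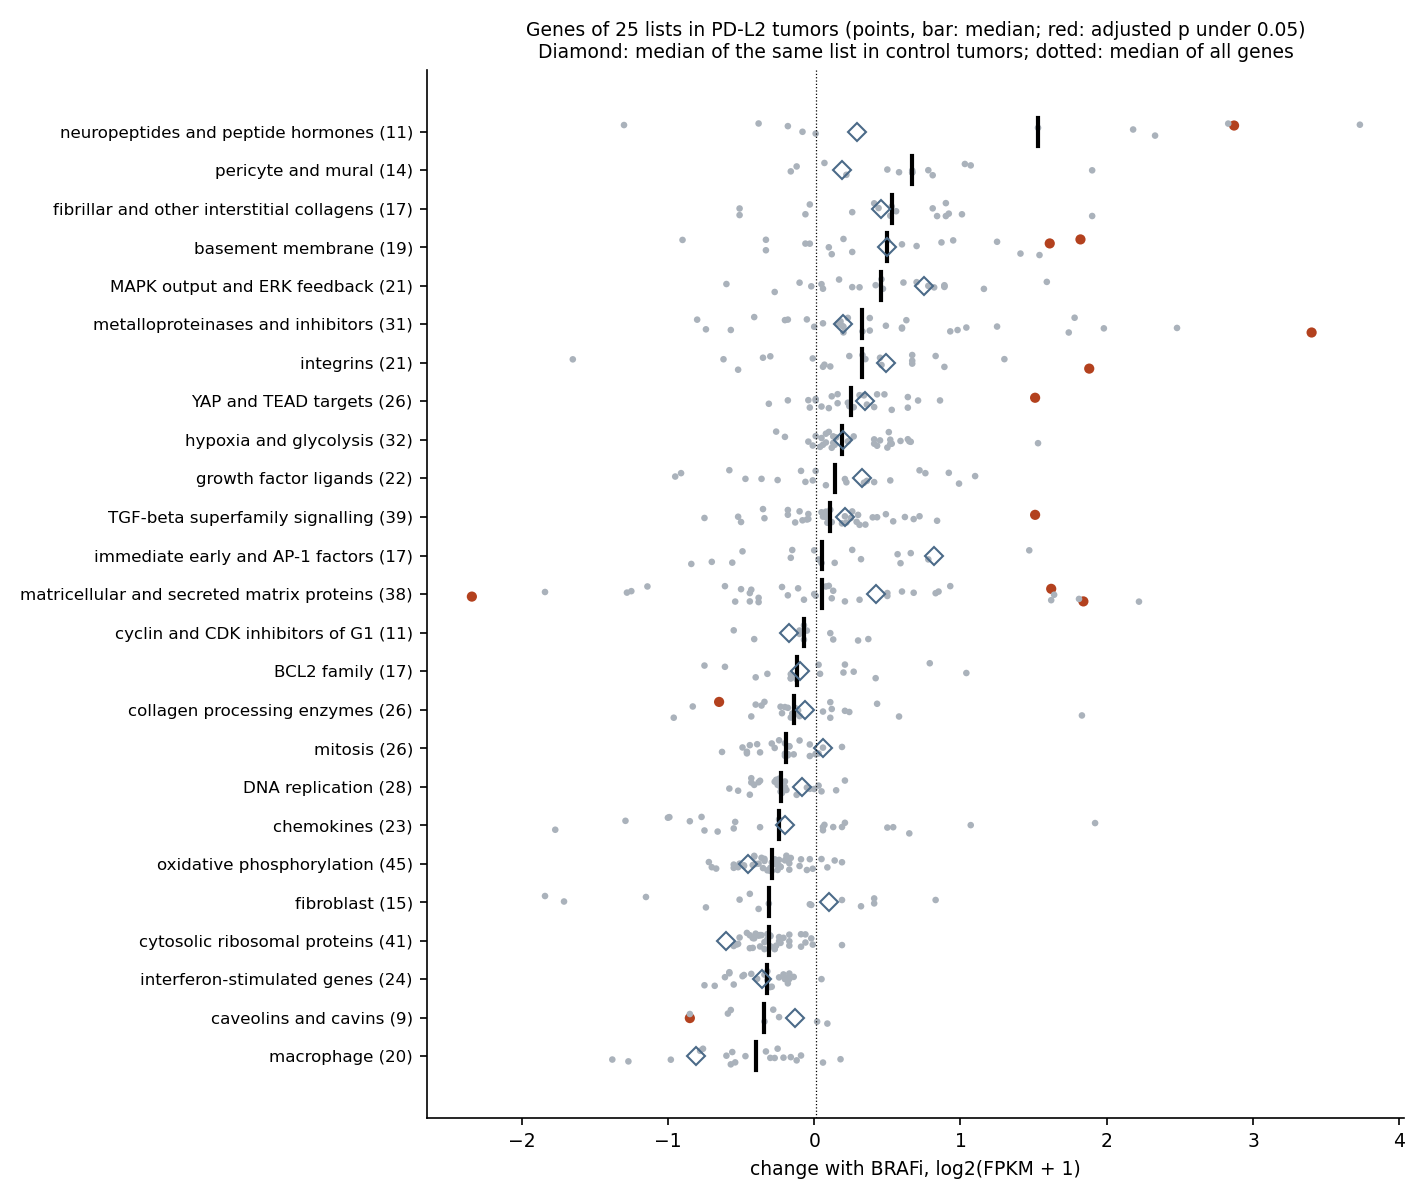
Change with BRAFi in PD-L2 tumors on the log2(FPKM + 1) scale for the tested genes of 25 lists (points, red where adjusted p was under 0.05), with the median of each list (bar), its median in control tumors (diamond) and the median of all genes (dotted line). Neuropeptides have the highest median, 1.53, and macrophage markers the lowest, -0.40.

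Markers of host cells varied between tumors, and in bulk tissue fewer cells of a type and less RNA per cell cannot be told apart. No member of any host cell list passed. Pericyte and mural markers were the most displaced of the vascular lists, with summed levels that did not overlap, 153 to 199 FPKM in vehicle tumors against 237 to 354 in BRAFi tumors. Of the 14 tested, 12 were positive with a median of 0.67 (0.19 in control tumors), and Rgs5 was at 7.8, 7.44 and 6.77 and then 24.1, 63.5 and 17.6 FPKM (1.90 ± 0.42, adjusted p = 0.0745). The median was 0.51 without PD-L2 BRAFi tumor 2. Pericytes also make type IV collagen, and the part of these cells in the rises of Col4a1, Col15a1 and Itga1 was not tested. Endothelial markers summed to 247 to 330 FPKM and then 256 to 386 (median 0.19, and -0.07 without PD-L2 BRAFi tumor 2). Of the 18 tested, 15 were positive, and 1 positive change had an unadjusted p under 0.05, against 11.0% of all genes. Of 21 tested angiogenic ligands and receptors 16 were positive and 0 passed, with a median of 0.29 (0.02 in control tumors). The Notch pathway genes of vessels Dll4 (1.18 ± 0.27, adjusted p = 0.0798) and Notch4 (1.19 ± 0.30, adjusted p = 0.0911) were positive and at 0.17 and -0.21 in control tumors. Macrophage markers summed to 1100 to 2460 FPKM and then 604 to 1970, with 18 of 20 negative and a median of -0.40 (-0.81 in control tumors). Among them the lysozyme Lyz2 was at 667, 613 and 308 and then 249, 418 and 67.6 FPKM (-1.38 ± 0.58, adjusted p = 0.21). Fibroblast markers summed to 1490 to 3420 FPKM and then 2310 to 2650, and their median of -0.31 was 0.09 without PD-L2 BRAFi tumor 2. Hemoglobin and other erythroid genes had a median of 0.04 in PD-L2 tumors and -2.25 in control tumors. There 4 of 5 tested members passed as lower, against 3.91% of all genes. Interferon-stimulated genes were negative in 23 of 24 (median -0.32) with large spread: Isg15 was at 79.5, 20.8 and 20.1 FPKM under BRAFi against 37 to 63.8 under vehicle. The positive medians of the keratinocyte list (1.58 over 7 genes) came with PD-L2 BRAFi tumor 3, without which the median was -0.04. Class II antigen presentation genes had a median of 0.86 over 6 genes and were lowest of the BRAFi tumors there, with Cd74 at 187, 225 and 40.5 FPKM under BRAFi.

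Responses of PD-L2 and control tumors were set side by side, since they share no library. The control comparison called 899 genes (7.42%), 425 higher (3.51%) and 474 lower (3.91%), against 29 in PD-L2 tumors, and its groups did not overlap for 4380 (36.1%), but the difference between the responses passed for only 2 genes (0.0165%), Mir212 and Mir1940, which passed the filter through the PD-L2 BRAFi group alone, with 542 (4.47%) at an unadjusted p under 0.05. The lower number of calls in PD-L2 tumors does not by itself show smaller responses there. Of the 899 genes called in control tumors, 872 had the same sign in PD-L2 tumors. Of the 22 genes that rose in PD-L2 tumors 20 had a positive change in control tumors, and 5 passed there. All 7 that fell had a negative change there, and 4 passed. Signs were counted whatever the size of the change, as for Lpar6 at 0.09 in control tumors (adjusted p = 0.687). The share of equal signs over all genes was not computed, so these sign counts are not read as an excess. Across all genes the responses had a Pearson correlation of 0.52 and a Spearman correlation of 0.65. Gene length had Spearman correlations of 0.413 with the PD-L2 and 0.456 with the control responses, and its part in the correlation between them was not tested.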

How the data were processed

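RNA was measured by poly(A)-selected, unstranded RNA sequencing in 12 tumors, 3 in each of 4 groups, per the labels' protocols. The authors deposited FPKM per gene in 1 table, made with TopHat and the Cufflinks tools Cuffnorm and Cuffdiff on the mouse build mm9, per the submitters' processing notes, and no version is given in the sources used here. The labels' protocols call the reads paired-end and the series design single-end of 50 bases. Counts cannot be recovered from the low values, so depth and counting error are unknown. Summed FPKM per library was 499845 to 648254, with 16269 to 17469 genes above 0, and Spearman correlations were 0.948 to 0.969 within groups and 0.941 to 0.968 between them.

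Genes averaging 1 FPKM or more were tested on log2(FPKM + 1) with limma 3.58.1 in R 4.3.3, with 1 mean for each of the 4 groups, a mean-variance trend, two-sided tests and Benjamini-Hochberg adjustment over 12117 genes at 0.05. The pseudocount understates the change of low genes. The script was tested on simulated data. P-values measure the spread between 3 tumors a group, and an exact permutation of 3 against 3 cannot go below 0.1. Of the symbols, 23782 matched RefSeq, whose GRCm38.p6 tables gave sequences, coordinates and lengths.

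The genes named are those past the threshold, the 10 nearest outside it, up to 5 members of each of 53 gene lists with the smallest p, a short list of MAPK and melanoma genes and the partners of called genes. Genes outside this rule, among them Ppm1h, Mir132, Mir2137 and markers of other cell types, were chosen after their values were seen. The comparison, its members and the lists were chosen with earlier results of these data known. Alternatives changed the pseudocount, filter, scaling, fit, weights, length trend, replicate term and, in turn, each library.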

Additional observations from a re-analysis of the deposited data

Results flagged for a closer look

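In limma's test of the difference between the responses of PD-L2 and control tumors over all genes, 2 genes passed. The difference was 4.18 for Mir212 (adjusted p = 1.7e-05) and 3.61 for Mir1940 (adjusted p = 1.07e-04) on the log2(FPKM + 1) scale. All 3 PD-L2 BRAFi tumors were above 0 and the other 9 libraries were listed at 0, so both genes entered the test through that group alone and had to differ. These differences depend on the pseudocount and are no fold changes, and with a filter at 5 FPKM neither gene is tested.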

How the results depend on the processing

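No change of sign was seen among the 29 called genes without PD-L2 BRAFi tumor 2 or tumor 3, and no gene past the threshold reversed under any alternative run, but the number of calls moved. In PD-L2 tumors (29 calls) it was 17 with no filter on low values, 45 with a filter at 5 FPKM, 46 after quantile normalization, 5 in a fit to the PD-L2 groups alone, 13 without the mean-variance trend and 2245 with array quality weights, which gave PD-L2 BRAFi tumor 1 a weight of 3.35, the highest of the 12. It was 41 after rescaling to the same sum without small RNA genes, 38 of them higher and 3 lower, a scaling that moved the median of all genes by 0.12. With the length trend removed it was 36, 20 of them shared with the 29. Col4a1, Col15a1, Vcan, Postn, Lpar6, Dclk1, Leprel4 and Hspb6 then had an adjusted p of 0.0538 to 0.169, and Mir1940 had no value. The median length was 5116 bases for the genes that rose and 2045 for those that fell, against 3302 over the genes tested. Leaving out 1 library gave 3 to 136 calls. The difference between the responses (2 calls) gave 1 with a pseudocount of 0.1, 0 with a filter at 5 FPKM, which removes both genes, 4 with array weights, and 2 to 5 with 1 library left out. The control comparison (899 calls) gave 196 with no filter, 1404 rescaled, 1762 with array weights, 28 with the length trend removed, and 0 to 1649 with 1 library left out, the 0 without control vehicle tumor 2. Of the medians of gene lists, 1309 stayed within the spread used and 67 moved over the lists and alternatives. Apart from the filter at 5 FPKM, the cause of these shifts was not tested.

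The replicate numbers did not pair the samples: deviations of same-numbered PD-L2 vehicle and BRAFi tumors correlated at -0.016, 0.00555 and 0.242, and not every sample correlated best with its own number. With the replicate block 29 genes passed, 15 of them shared with the 29 calls. With the block and the length trend removed the number was 3 in PD-L2 tumors, 1 for the difference between the responses and 27 in control tumors. Depth is unknown, so counting error could not be set beside these values.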
